A study of Mus musculus with 14 samples.

Results

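Oligodendrocyte lineage cells were examined among the cells sorted from the pontine nuclei (PN) of P5 mice, where P5 is postnatal day 5. Members were chosen by their raw UMIs (unique molecular identifiers, each standing for 1 captured transcript) of 5 genes, among the cells of the 2 P5 libraries with at least 1000 genes and under 10% of mitochondrial UMIs. They had at least 3 raw UMIs of *Olig1*, at least 1 of *Olig2*, at most 1 of *Aqp4* and at most 2 of *C1qa* and *C1qb* together. The rule kept 1177 cells of the 17908 P5 cells that passed the same quality limits, or of 122658 such cells in all 14 libraries. They were 858 of 11300 cells in library 1 and 319 of 6608 in library 2. The share was 7.59% (95% exact interval 7.11 to 8.10) in library 1 and 4.83% (4.32 to 5.37) in library 2, with a mean of 6.21% ± 1.96 (SD, n = 2). Intervals of shares cover counting error only. Within the members, 570 cells held at least 1 UMI of *Pdgfra* and are called *Pdgfra*+ below, and 607 held none and are called *Pdgfra*-.

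Both libraries came from control mice of the genotype Atoh1Cre/+; Rosalsl-tdTomato/+ on the C57BL/6J strain, so each animal carried the Cre allele in place of 1 copy of *Atoh1* and no animal was wild type at this locus. Each library pooled the microdissected PN of 11 to 13 pups of mixed sex. Cells with the TdTom reporter and without DAPI were sorted, and the labels give their cell type as neurons. The study used these libraries to sort PN neurons into subtypes. The files held 236964126 and 160411671 UMIs in 15821 and 9586 barcodes, with a median of 16500.0 and 19434 UMIs in cells that passed the quality limits. With a single condition at P5, no treatment or genotype could be compared among the members, and 2 libraries gave the only replication.

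Oligodendrocyte precursor cells carry the PDGF receptor alpha and the proteoglycan NG2 (*Cspg4*), and they divide under PDGF from neurons and glia. The basic helix-loop-helix factors OLIG1 and OLIG2 act throughout the lineage, and the HMG box factor SOX10 drives its later steps together with MYRF. Precursors that leave the cell cycle lose *Pdgfra*, pass through a committed stage with *Gpr17*, *Bmp4*, *Bcas1* and *Enpp6*, and then switch on the proteins and lipids of myelin, the membrane wrapped around axons. The brainstem is among the first brain regions to myelinate after birth.

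The genes that chose the members lie on mm10 (GRCm38) at chr16:91269772-91271933 for *Olig1* and chr16:91225457-91228677 for *Olig2*, neighbors on the plus strand. *Pdgfra*, which set the classes, spans chr5:75152292-75198215 on the plus strand. *Sox10*, which the rule did not use, spans chr15:79154908-79165240 on the minus strand. Just inside the limit, 92 and 21 cells of libraries 1 and 2 had 3 UMIs of *Olig1*, and just outside it 104 and 23 cells had 2. CPM here is the summed UMIs of a gene in a group of cells of a library, scaled to a total of 1000000 UMIs. The inside cells summed to 401 and 341 CPM of *Sox10* and the outside cells to 339 and 288 CPM. The 12 neuron markers summed to 3404 and 4333 CPM inside against 7480 and 7163 CPM outside. Members with exactly 1 UMI of *Pdgfra* numbered 34 and 10. They held 8729 and 7700 CPM of the neuron markers and 3984 and 5926 CPM of *Mbp*. The libraries shared 38 barcodes over all cells and 0 among members.

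The label was checked against markers that the rule did not use. *Sox10* was detected in 92.8% of the members of library 1 and 93.1% of library 2, against 4.79% and 0.787% of neuron class cells, so the lineage marker was present in nearly all members. The comparison classes were cut from P5 cells of the same quality by raw UMIs. The microglia class (890 and 572 cells) had at least 10 UMIs of *C1qa* and *C1qb* and none of *Olig1*. The astrocyte class (991 and 415 cells) had at least 2 of *Aqp4*, and at most 2 of *Olig1* and of *C1qa* and *C1qb* together. The neuron class (4158 and 3176 cells) had at least 2 of *Slc17a6* and none of *Olig1* or *Aqp4*. Its limit on *C1qa* and *C1qb* was the same. *Olig1* also chose the members, so part of their distance to these classes was set in advance. Summed *Sox10* was 386 and 318 CPM in the members and at most 5.15 CPM in any library of the other classes. *Mbp*, which encodes myelin basic protein, reached 6762 and 8995 CPM in the members, 350.0 and 239 CPM in the astrocyte class and 112 and 60.7 CPM in the neuron class. A UMI of *Mbp* was still found in 74.7% and 50.3% of neuron class cells, so a UMI of *Mbp* alone did not mark a cell of the lineage.

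By the fixed ratio, the genes that set the members furthest apart from the other 3 classes were mostly genes of myelin and of its onset. The ratio divided the lower member library by the higher library of the other classes, with 10 CPM added to each. *Mag*, a myelin adhesion protein of the inner membrane, stood at 1679 and 2210.0 CPM in the members and at most 17.3 CPM elsewhere, a ratio of 61.9, and *Ugt8a*, the enzyme that makes galactosylceramide, had a ratio of 50.5. *Cldn11*, the claudin of myelin tight junctions, had a ratio of 47.9 and *Enpp6*, a choline phosphodiesterase of newly forming oligodendrocytes, one of 34.7. *Bcas1*, *Nfasc*, *Mobp*, *Sox10*, *Pllp*, *Elovl7*, *Gpr17*, *Sema5a* and *Cnp* had ratios between 19.2 and 27.0. Classes were cut by genes of the same cells, *Olig1* among them, so these values are a description with no test.

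**Figure D1:**
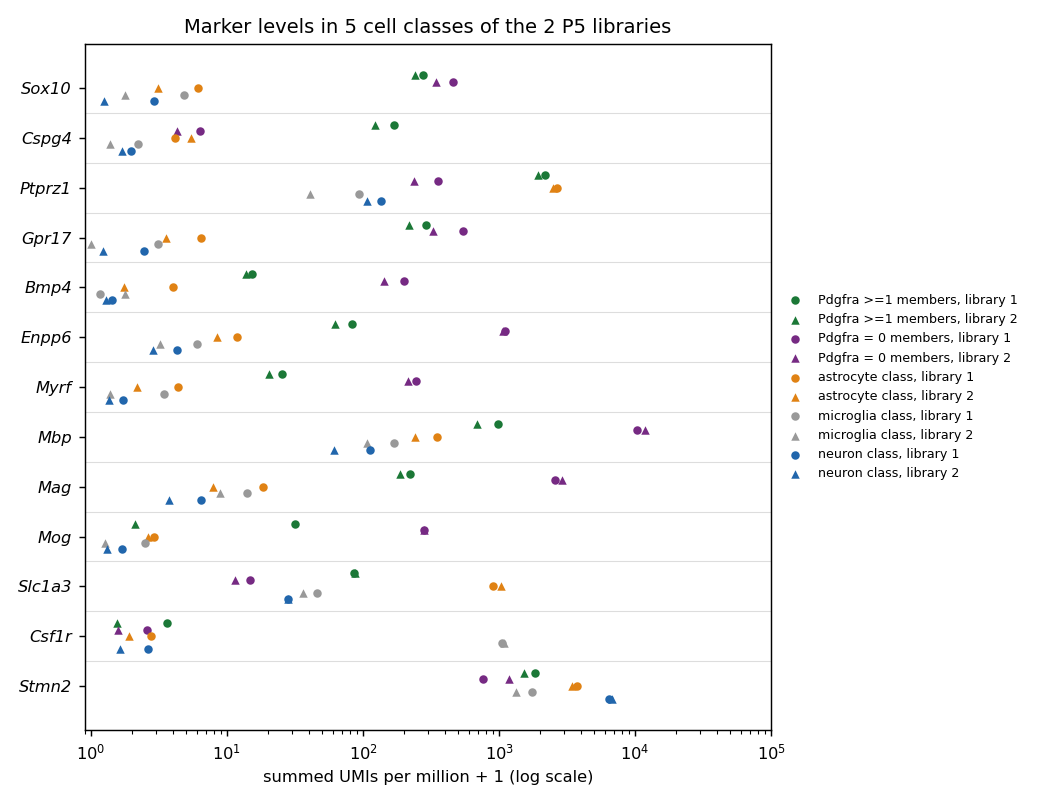
Level in CPM plus 1 (horizontal log axis) of 13 genes in the 2 member classes and in the astrocyte, microglia and neuron classes, with a circle for library 1 and a triangle for library 2. *Sox10* and *Gpr17* lay above 200 CPM in both member classes and under 7 CPM elsewhere, whereas *Mag* and *Mbp* separated the *Pdgfra*- members from the rest.

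The *Pdgfra*+ cells made up 50.9% (47.5 to 54.3) of the members in library 1 and 41.7% (36.2 to 47.3) in library 2. They were the shallower class, with median UMIs of 8652 and 10499 a cell against 19229 and 26657 in *Pdgfra*- cells. When members were thinned to 3000 UMIs, 42.1% of 850 and 32.9% of 313 kept a UMI of *Pdgfra*. Thinning left out the shallower cells, which were 8 and 6 members, 37 and 17 microglia class cells, 148 and 40 astrocyte class cells and 23 and 7 neuron class cells. Summed *Pdgfra* was 704 and 630 CPM in the class it defined.

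The 2 member classes were compared by edgeR's quasi-likelihood test on the 4 sums of class and library, with the library as a block. Genes were called at an adjusted p under 0.05 and a log2 change over 0.25, the limits of the study, and higher or lower below means in *Pdgfra*+ against *Pdgfra*- cells. Of 10456 genes tested, 3094 (29.6%) were higher and 2908 (27.8%) lower, which makes 6002 called genes (57.4%). Of these, 5960 had the same sign in both libraries. With library totals in place of TMM scaling the split moved to 4645 higher and 1852 lower, since the median of all genes shifted to 0.28 from 0.0065 on the log2 scale. A change within about that shift of 0 therefore depends on the scaling. Where this test was repeated at 3000 UMIs a cell, the classes were cut again by *Pdgfra* in the thinned cells. They then held 461 *Pdgfra*+ and 702 *Pdgfra*- cells, whereas shares within a class at 3000 UMIs kept the first classes. The classes were split by a gene of the same cells and only 1 residual degree of freedom remained. The p-values and the SE of log2 changes therefore rest on spread shared across genes and describe cells split by *Pdgfra*. The SE does not measure the spread between the 2 libraries. The gene lists were chosen with earlier results known, so no list was tested, and their counts stand beside the percentages for all genes. A gene that passed the detection limit through only 1 class was kept because of its level there, so counts over the tested genes of a list are descriptions.

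**Figure D2:**
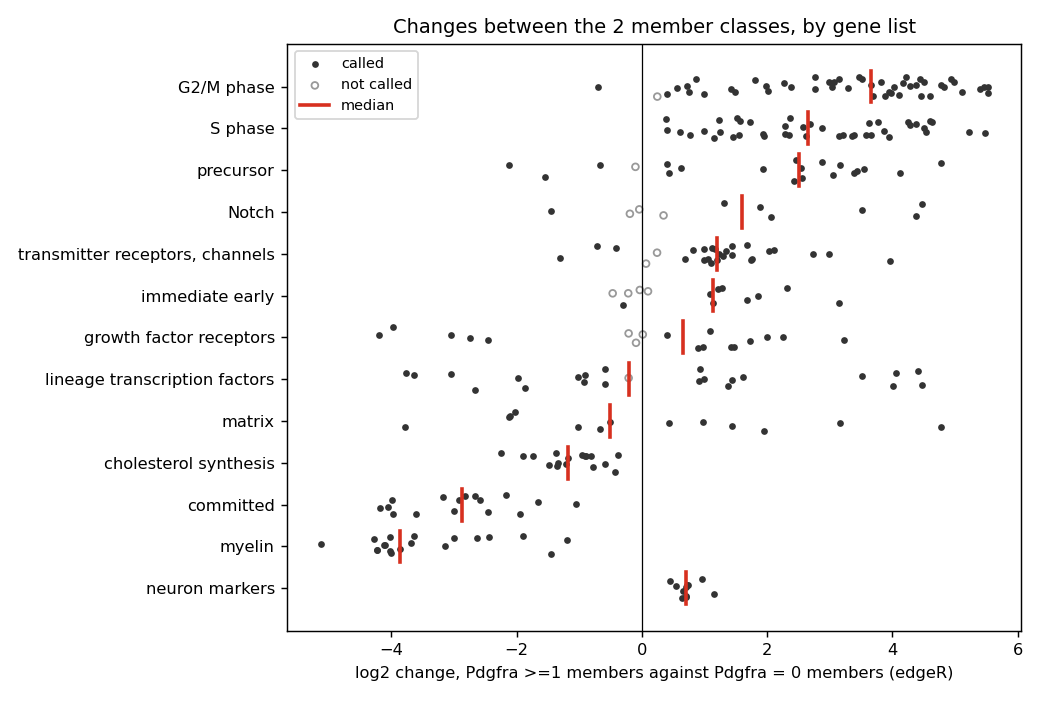
Log2 change of *Pdgfra*+ against *Pdgfra*- members (horizontal axis, edgeR) for each tested gene of 13 lists, 1 point a gene, filled where called, with the list median as a red bar. The medians run from 3.66 for the G2/M genes to -3.86 for the myelin genes.

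Among the members, precursor genes marked the *Pdgfra*+ cells. Of 20 tested, 16 were higher (29.6% of all genes were) and 3 lower, with a median log2 change of 2.50. *Cspg4*, the NG2 proteoglycan, summed to 168 and 122 CPM in *Pdgfra*+ cells and 5.33 and 3.28 CPM in *Pdgfra*- cells, a log2 change of 4.77 ± 0.17 (SE). A UMI of it was seen in 76.0% and 70.7% of *Pdgfra*+ cells, 8.55% and 6.99% of *Pdgfra*- cells and 2.21% and 1.67% of neuron class cells. *Fabp7*, a fatty acid binding protein of glial progenitors, stood at 3450.4 and 4212 CPM against 312 and 272 CPM, a log2 change of 3.43 ± 0.11. *Ptprz1*, a receptor tyrosine phosphatase, stood at 2190.0 and 1919 CPM against 353 and 236 CPM. A UMI of *Ptprz1* was also seen in 95.3% and 95.9% of astrocyte class cells, and one of *Fabp7* in 95.5% and 94.9%.

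Not every gene of the precursor list followed *Pdgfra*. *Tnr*, which encodes the matrix protein tenascin-R, was lower in *Pdgfra*+ cells at 195 and 154 CPM against 694 and 552 CPM, a log2 change of -2.11 ± 0.11 (adjusted p = 3.0e-29). *Sema5a*, a guidance semaphorin, was lower by -1.55 and *Bcan*, the proteoglycan brevican, by -0.66 on the log2 scale, although *Bcan* stood at 0.0025 after each cell was thinned to 3000 UMIs. *Gpr37l1*, an orphan receptor, was at 158 and 187 CPM against 146 and 157 CPM and was not called.

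The lineage's transcription factors divided into sets of equal size, 11 of 23 higher and 11 lower (29.6% and 27.8% of all genes). *Sox9*, a gliogenic factor, changed by 4.01 and the ETS factors *Etv5* and *Etv4*, read out downstream of growth factor receptors, by 4.41 and 4.06. *Sox5* and *Sox6*, SoxD factors that hold back differentiation, were higher by 1.38 and 0.91. In these genes both *Pdgfra*+ sums exceeded both *Pdgfra*- sums.

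On the other side stood the factors of terminal differentiation. *Myrf*, the myelin regulatory factor, summed to 24.5 and 19.4 CPM in *Pdgfra*+ cells and 246 and 213 CPM in *Pdgfra*- cells, a log2 change of -3.64 ± 0.14. *Nkx6-2*, a homeodomain factor of maturing oligodendrocytes, changed by -3.76, *St18* by -3.05, *Tcf7l2*, the Wnt pathway's transcription factor in committed cells, by -2.67 and *Zeb2* by -1.97. *Sox10* itself was lower by -0.91 ± 0.10, at 274 and 240.0 CPM against 454 and 346 CPM, and was seen in 89.7% and 88.0% of *Pdgfra*+ cells and 96.0% and 96.8% of *Pdgfra*- cells. *Nkx2-2*, a homeodomain factor of the lineage, was the only factor not called. Its per-library log2 ratios were of opposite sign, at -0.46 and 0.19. At 3000 UMIs a cell edgeR called it lower (-0.57, adjusted p = 0.0059), as it did without the filter on low genes (-0.34, adjusted p = 0.026).

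Cell cycle genes were higher in *Pdgfra*+ cells. All 42 S phase genes tested were called higher (29.6% of all genes were), with a median log2 change of 2.65. So were 47 of 49 G2/M genes, with a median of 3.66. At 3000 UMIs a cell 24 of 26 S phase genes were higher, with a median of 2.26, and 27 of 30 G2/M genes, with 1.89. Of all 5521 genes tested at that depth, 1184 were higher. Without the highest Scrublet doublet scores the medians were 3.32 for S phase and 4.02 for G2/M. Per cell, the S phase genes summed to a median of 1045 and 1899 CPM in *Pdgfra*+ cells and 490.1 and 493 CPM in *Pdgfra*- cells, so part of these transcripts was also present in *Pdgfra*- cells. *Mki67*, a marker of cells in cycle, stood at 181 and 269 CPM against 4.31 and 3.47 CPM, a log2 change of 5.46 ± 0.17. *Top2a*, the topoisomerase that untangles sister chromatids, stood at 286 and 397 CPM against 6.01 and 5.59 CPM. *Mcm5*, a subunit of the replicative helicase, changed by 4.63 and *Rrm2*, a subunit of the enzyme that makes deoxynucleotides, by 4.51. Of the 2 exceptions, *G2e3* was lower by -0.70, a call lost at 3000 UMIs a cell (adjusted p = 0.23), and *Tubb4b*, a tubulin, had an adjusted p of 0.035 but did not pass the log2 limit of 0.25.

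Cells with at least 1 UMI of *Mki67* or *Top2a* were 35.9% (31.4 to 40.6) of *Pdgfra*+ cells in library 1 and 48.9% (40.1 to 57.7) in library 2, or 42.4% ± 9.15 (SD, n = 2). Among *Pdgfra*- cells they were 4.99% and 5.38%, and among neuron class cells, which have left the cycle, 3.97% and 6.80%. At 3000 UMIs a cell the shares were 25.8% and 39.8% in *Pdgfra*+ cells, 1.92% and 2.16% in *Pdgfra*- cells and 0.653% and 3.06% in the neuron class. At both depths the *Pdgfra*- share was above the neuron class in library 1 and below it in library 2. The microglia class reached 35.2% and 35.1% at all UMIs, close to the *Pdgfra*+ cells in library 1 and below them in library 2, and the astrocyte class 8.78% and 12.5%. The libraries differed in this share by more percentage points among *Pdgfra*+ cells than among the other classes, though not by a larger ratio. No test was possible with 2 libraries.

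Of 17 Notch signaling genes 10 were abundant enough to be tested, of which 6 were higher in *Pdgfra*+ cells and 1 lower (29.6% and 27.8% of all genes), with a median log2 change of 1.60. Without the filter on low genes 7 of 17 were higher and 1 lower, with a median of 0.67. Of all 19150 genes in that setting, 3100 were higher and 3622 lower. The effectors *Hes5*, at 270.1 and 558 CPM against 13.0 and 15.4 CPM, and *Hes1*, at 40.9 and 79.3 CPM against 1.93 and 2.51 CPM, changed by 4.47 and 4.39 on the log2 scale. A UMI of *Hes5* was seen in 75.3% and 88.0% of *Pdgfra*+ cells and also in 70.7% and 76.4% of astrocyte class cells. The receptor *Notch1* changed by 1.32, the ligands *Dll1* and *Dll3* by 1.88 and 2.06 and the feedback inhibitor *Nrarp* by 3.52. *Rbpj*, the DNA-binding partner of Notch, was lower by -1.45.

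Receptors of growth factors were called in both directions. Of 18 tested, 10 were higher and 5 lower (29.6% and 27.8% of all genes), so the share of lower receptors was the same as that of all genes. *Ednrb*, the endothelin B receptor, stood at 169 and 178 CPM against 16.0 and 13.9 CPM, a log2 change of 3.23 ± 0.14. *Fgfr1* and *Fgfr3* were higher by 0.97 and 1.73, whereas *Fgfr2* was lower by -2.46, so the FGF receptors divided between the classes, although *Fgfr1* was not called at 3000 UMIs a cell (adjusted p = 0.11). *Ntrk2*, the BDNF receptor, was higher by 1.42 and *Erbb3*, a neuregulin receptor, lower by -2.74. *Lpar1*, a lysophosphatidic acid receptor, was at 18.1 and 18.8 CPM against 260.4 and 319 CPM, and *Plxnb3*, a semaphorin receptor, at 14.2 and 12.2 CPM against 177 and 175 CPM. Among 8 ligands tested 4 were higher and 3 lower (29.6% and 27.8% of all genes).

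Transcripts for the ligand of the receptor that set the classes were higher in cells with no UMI of the receptor's gene. *Pdgfa* summed to 127 and 82.0 CPM in *Pdgfra*+ cells and 397 and 366 CPM in *Pdgfra*- cells, a log2 change of -2.13 ± 0.12 (adjusted p = 2.6e-27). It was at 152 and 143 CPM in the neuron class, 101 and 82.3 CPM in the astrocyte class and 61.3 and 42.8 CPM in the microglia class. The *Pdgfra*- sums were thus the highest of the 5 classes in both libraries. *Bmp4*, a morphogen, was at 14.4 and 12.8 CPM against 199 and 143 CPM, while *Bmp7* changed in the opposite sense by 3.80, as did *Wnt7b* by 3.80.

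Transmitter receptors and channels were largely higher in *Pdgfra*+ cells, at 22 of 27 tested with 3 lower (29.6% and 27.8% of all genes) and a median log2 change of 1.20. The AMPA receptor subunits *Gria1*, *Gria2* and *Gria3* changed by 3.96, 1.05 and 1.34, and the NMDA receptor subunit *Grin3a* by 2.12. *Grm5*, a metabotropic glutamate receptor, stood at 154 and 150.0 CPM against 47.3 and 44.6 CPM. The GABA-A subunit *Gabra3* changed by 1.74, the potassium channel *Kcnd2* by 1.68 and the sodium channel *Scn3a* by 1.23. *Kcnj10*, the inward rectifier Kir4.1, was lower at 51.6 and 47.1 CPM against 106 and 96.1 CPM, and was not called at 3000 UMIs a cell (adjusted p = 0.080). Neuron markers moved the same way, with 11 of 11 tested higher (29.6% of all genes), and summed to 6451 and 5333 CPM in *Pdgfra*+ cells and 2508 and 3656 CPM in *Pdgfra*- cells. DESeq2 called 4 of 11 neuron markers higher, beside 1669 of all 10456 genes. In library 2 alone the log2 ratios of *Stmn2* and *Tubb3* were 0.091 and -0.086, against 0.99 and 0.97 in library 1. At 3000 UMIs a cell, with the classes cut again, 1 of 9 neuron markers was higher and 2 were lower. Of all 5521 genes tested there, 1184 were higher and 1300 lower. Of 19 receptor and channel genes 14 were higher there and 0 lower. Without the members rich in neuron transcripts, 22 of 27 receptor and channel genes were higher and 4 lower, with a median of 1.65. In that setting 10 of 11 neuron markers were higher, with a median of 0.87 against 0.70 in all members. Of all 10054 genes tested in it, 2973 were higher and 2899 lower. Without the highest Scrublet doublet scores 11 of 11 neuron markers were higher (3034 of all 10088 genes were), with a median of 1.45.

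Those neuron-rich members were 92 cells (10.7%) in library 1 and 38 (11.9%) in library 2, defined as cells with at least 5000 CPM of the 12 neuron markers. Their median depth was 32296.5 and 45202 UMIs against 11981 and 16117 in the other members, and 63 and 29 of them were among the cells with the highest Scrublet doublet scores. Around that limit, 37 and 6 members lay between 4000 and 6000 CPM, a range that reaches into the neuron-rich members. WPRE, the reporter's transcript, stood at 341 and 338 CPM in the neuron-rich members and 102 and 33.1 CPM in the others, against 384 and 422 CPM in the neuron class. The neuron class had a median of 18703 and 19604 CPM of the markers. Without these members 2973 genes were higher and 2899 lower. The part of doublets in these results was not tested.

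Genes of the committed stage were lower in *Pdgfra*+ cells for all 16 tested (27.8% of all genes were), with a median log2 change of -2.87. *Enpp6* stood at 82.1 and 61.0 CPM against 1102 and 1061 CPM, a log2 change of -4.18 ± 0.12. *Bcas1*, a marker of oligodendrocytes entering myelination, was at 208 and 186 CPM against 1435 and 1171 CPM, and *Fyn*, a kinase that acts in process outgrowth, at 431 and 392 CPM against 1659 and 1403 CPM. *Sirt2*, a deacetylase of myelinating cells, was at 434 and 369 CPM against 3832 and 4247 CPM. *Gpr17*, an orphan receptor that times differentiation, differed least, at 288 and 216 CPM against 545 and 328 CPM, a log2 change of -1.06 ± 0.10. A UMI of *Gpr17* was present in 83.1% and 76.7% of *Pdgfra*+ cells as well as in 94.8% and 96.2% of *Pdgfra*- cells, against 3.58% and 0.567% of neuron class cells.

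Myelin genes were lower in all 19 tested (27.8% of all genes were), with a median log2 change of -3.86. With at least 2 UMIs of *Pdgfra* against 0 the median was -4.75, and at 3000 UMIs a cell it was -4.56 over 15 genes. *Mbp* was at 979 and 689 CPM in *Pdgfra*+ cells and 10271 and 11886 CPM in *Pdgfra*- cells, a log2 change of -4.02 ± 0.11 (adjusted p = 3.1e-45). *Mag* was at 222 and 185 CPM against 2564 and 2915 CPM and *Cnp*, an enzyme of the myelin cytoplasm, at 331 and 296 CPM against 3467 and 4122 CPM. The 34 and 10 *Pdgfra*+ cells with exactly 1 UMI of *Pdgfra* held 3984 and 5926 CPM of *Mbp*. For the latest genes the libraries differed within the *Pdgfra*+ class. *Mog*, a protein of the outermost myelin layer, was at 30.7 CPM in library 1 and 1.11 CPM in library 2, and *Mal*, a raft proteolipid, at 14.6 and 0.554 CPM. In *Pdgfra*- cells *Mog* was at 282 and 280.1 CPM and *Mal* at 306 and 255 CPM, far above both.

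Among *Pdgfra*+ cells, 27 and 4 had at least 10 UMIs of *Mbp* and 17 and 2 had at least 100, and 14 and 1 had a UMI of *Mog*. A UMI of *Mbp* occurred in 54.0% and 30.8% of *Pdgfra*+ cells, below the deeper cells of the neuron class. At 3000 UMIs a cell it occurred in 27.6% and 17.2%, against 17.9% and 9.498% of the neuron class. The astrocyte class was then at 24.1% and 10.7% and the microglia class at 21.3% and 10.5%. Genes of the most mature sheath were scarce in all members. *Opalin* was at 5.10 and 7.52 CPM in *Pdgfra*- cells, seen in 3.80% and 5.91% of them, and in 0 of 437 and 0 of 133 *Pdgfra*+ cells, which at 3 counts allows shares of cells with a UMI of up to 0.686% and 2.26%. *Klk6* and *Aspa* were at 2.04 and 0.965 CPM and at 4.42 and 5.02 CPM in *Pdgfra*- cells, and all 3 were too low to be tested.

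Enzymes of cholesterol synthesis, the lipid that myelin membranes need most, were lower in *Pdgfra*+ cells for 17 of 17 genes tested (27.8% of all genes), with a median log2 change of -1.17. With library totals 15 of 17 stayed called and after thinning 11 of 17. Of all genes tested, 1852 of 10456 were lower with library totals and 1300 of 5521 after thinning. *Hmgcs1*, an entry enzyme, changed by -1.49 and *Lss*, the enzyme that closes the sterol ring, by -1.89.

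Extracellular matrix genes divided, with 6 of 13 higher and 7 lower (29.6% and 27.8% of all genes). *Ncan* (neurocan), at 145 and 124 CPM against 44.9 and 36.7 CPM, *Cspg5* (neuroglycan C), with a log2 change of 3.17, and *Sparc*, with 1.95, were higher. *Hapln2*, a link protein of nodes, *Col9a1* and *Col9a3* were lower, with *Col9a3* at 112 and 135 CPM against 400.4 and 420.0 CPM.

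The largest changes were found among genes that passed the filter on detection only through the class where they were high, so the order below is a description. The 12 largest called rises were *Ercc6l*, *Slfn9*, *Mcm10*, *Rmi2*, *Ska1*, *C1ql2*, *Hist1h1b*, *Top2a*, *Kif2c*, *Dtl*, *Mki67* and *Vipr2*. Apart from *Slfn9*, *C1ql2* and *Vipr2* these act in DNA replication, chromatin or mitosis. *C1ql2*, a secreted C1q-like protein, was at 21.5 and 31.6 CPM against 0.454 and 0.193 CPM and was seen in 25.3% of *Pdgfra*+ and 0.824% of *Pdgfra*- cells. *Vipr2*, a receptor for VIP and PACAP, was at 8.97 and 7.76 CPM against 0.113 and 0.193 CPM. *Ercc6l*, the first of them, had no UMI in *Pdgfra*- cells and 11.0 and 20.5 CPM in *Pdgfra*+ cells, so its fitted change depends on the prior count, and DESeq2 did not call it (adjusted p = 0.077).

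The 12 largest called falls were *Gm26834*, *Slc45a3*, *Galnt6*, *Mal*, *Ly6g6f*, *Itgad*, *Folr2*, *Itih3*, *Tmem45a*, *Fhl3*, *Tmem63a* and *Tmem125*. Most of them were rare transcripts. *Tmem125* was at 6.92 and 6.10 CPM in *Pdgfra*+ cells and 131 and 141 CPM in *Pdgfra*- cells, seen in 1.58% and 39.9% of cells. *Itih3* was at 2.06 and 1.11 CPM against 39.0 and 44.8 CPM. *Folr2*, a folate receptor, was at 0.748 and 1.11 CPM against 20.2 and 19.1 CPM, and *Tmem63a*, a mechanically gated channel, at 2.24 and 0.554 CPM against 36.7 and 36.3 CPM.

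Per cell, the medians of the precursor and myelin sums differed between the classes, while the ranges overlapped. The 20 precursor genes held a median of 14931 and 16163 CPM in *Pdgfra*+ cells and 3668 and 3095 CPM in *Pdgfra*- cells. The 22 myelin genes held a median of 736 and 686 CPM against 25512 and 31526 CPM. The highest cell had 164475 and 167138 CPM among *Pdgfra*- cells and 129814 and 95324 CPM among *Pdgfra*+ cells. The lowest *Pdgfra*- cell had 0.0 and 109 CPM. The quartiles of the myelin sum in *Pdgfra*- cells were 7064 and 52559 CPM in library 1 and 13518 and 63859 CPM in library 2, so the *Pdgfra*- cells varied among themselves far more than the *Pdgfra*+ cells, whose quartiles were 469 and 1089 CPM and 468 and 1023 CPM.

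**Figure D3:**
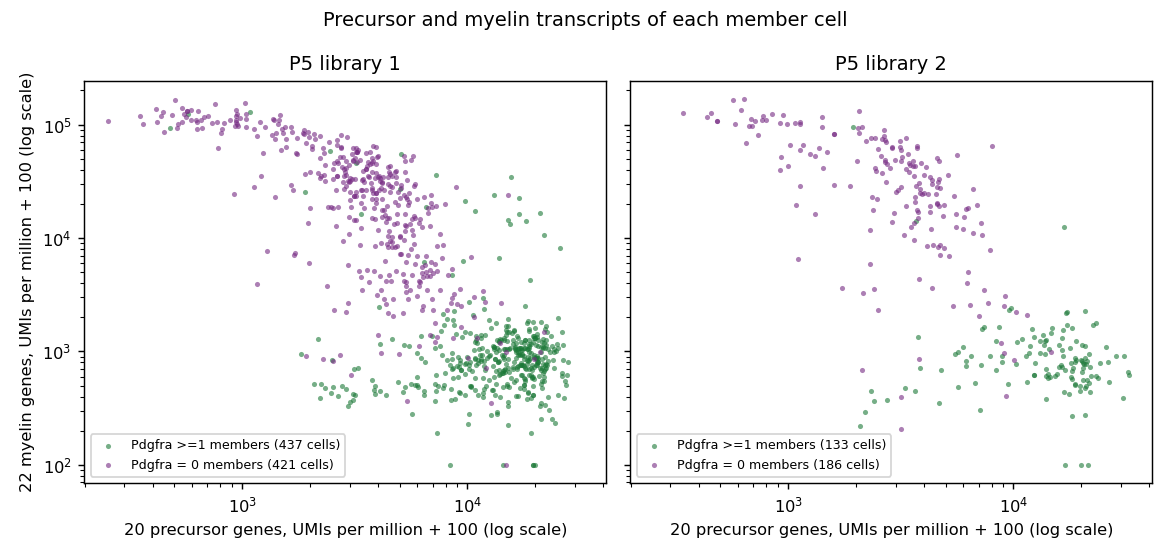
Sum of 20 precursor genes (horizontal) against sum of 22 myelin genes (vertical) in each member cell, in CPM plus 100 on log axes, by library and *Pdgfra* class. *Pdgfra*+ cells gather at low myelin and high precursor sums, with medians of 736 and 686 CPM of myelin genes, and *Pdgfra*- cells spread over more than an order of magnitude above them.

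To describe that spread, the 1177 members were clustered into 11 groups, numbered by their summed myelin genes, and named here by number and leading genes only. All genes of these cells took part, so levels across clusters are descriptions. The CPM of a cluster sums its cells over both libraries. Cluster 5 was the largest, with 305 cells (28.8% and 18.2% of the members of the 2 libraries). It led with *Ptgds*, *Pdgfra*, *Rlbp1*, *Hes5* and *Cspg4*, and 95.1% of its cells had *Pdgfra*. Between the member classes *Ptgds* changed by 3.69 in library 1 and 0.38 in library 2 on the log2 scale. At the 5% mitochondrial limit its change was 0.072, and without the highest Scrublet scores -1.17. Cluster 4, with 76 cells, led with *Hells*, *Mcm3*, *Mcm6* and *Dtl* of DNA replication. Cluster 3, with 120 cells, led with the histone gene *Hist1h1b* and with *Ube2c*, *Mki67*, *Cenpf* and *Top2a* of the G2/M phase. *Pdgfra* was present in 100% of the cells of cluster 4 and 94.2% of those of cluster 3. The 2 clusters were 5.59% and 9.32% of the members of library 1 but 8.78% and 12.5% of library 2.

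Clusters 6, 7, 9, 10 and 11 held few *Pdgfra*+ cells and differed by which genes peaked. Cluster 6 (108 cells, 13 of them with *Pdgfra*) had the highest *Gpr17*, at 1823 CPM, and *Nkx2-2*, at 348 CPM. Cluster 7 (135 cells) had the highest *Bmp4*, at 703 CPM, *Bcas1*, at 2888 CPM, and *Fyn*, at 3306 CPM. Cluster 9 (109 cells) had the highest *Enpp6*, at 2012 CPM, *Tcf7l2*, at 1209 CPM, and *Pdgfa*, at 824 CPM. Cluster 10 (116 cells) had the highest *Rras2*, at 629.6 CPM, *Lpar1*, at 557 CPM, and *Hmgcs1*, at 2018 CPM, with *Mog* at 101 CPM. Cluster 11 (86 cells) had the highest *Mag*, *Mobp*, *Mog* and *Mal*, with *Mog* at 1283 CPM, while *Bmp4* was at 0.392 CPM and *Tnr* at 31.4 CPM. Median depth ran from 10545 UMIs in cluster 6 to 28923 in cluster 10, and its part in these levels was not tested.

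Some genes thus peaked between the *Pdgfra*+ clusters and the last myelin cluster. *Pdgfa* was at 79.4 CPM in cluster 5, 824 CPM in cluster 9 and 67.5 CPM in cluster 11. *Tnr* was at 209 CPM in cluster 5, 1247 CPM in cluster 9 and 31.4 CPM in cluster 11. *Sox10* was between 352 and 554 CPM in clusters 5, 6, 7, 9, 10 and 11, at 293 and 291 CPM in clusters 3 and 4 and at most 227 CPM in clusters 1, 2 and 8. Summed cholesterol genes were between 1743 and 3145 CPM in clusters 5, 6, 7 and 9 and 7906 and 7042 CPM in clusters 10 and 11.

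Clusters 2 (64 cells) and 8 (43 cells) carried neuron genes. Their leading genes included *Stmn2*, *Tubb3*, *Nefl* and *Sncb*, and 64 and 42 of their cells were neuron-rich. Their median depths of 36988.5 and 42399 UMIs were the highest of all clusters. Cluster 2 held *Pdgfra* in 76.6% of its cells, and cluster 8 had 27479 CPM of myelin genes. Cluster 1, with 15 cells of which 2 were neuron-rich, led with *Meg3* and *Snhg11*. *Neurod1*, *Cbln1*, *Miat* and *Rmst* were also among its 10 leading genes, although none of the 12 listed neuron markers was. Whether its cells carried neuron transcripts was thus not settled by that list.

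**Figure D4:**
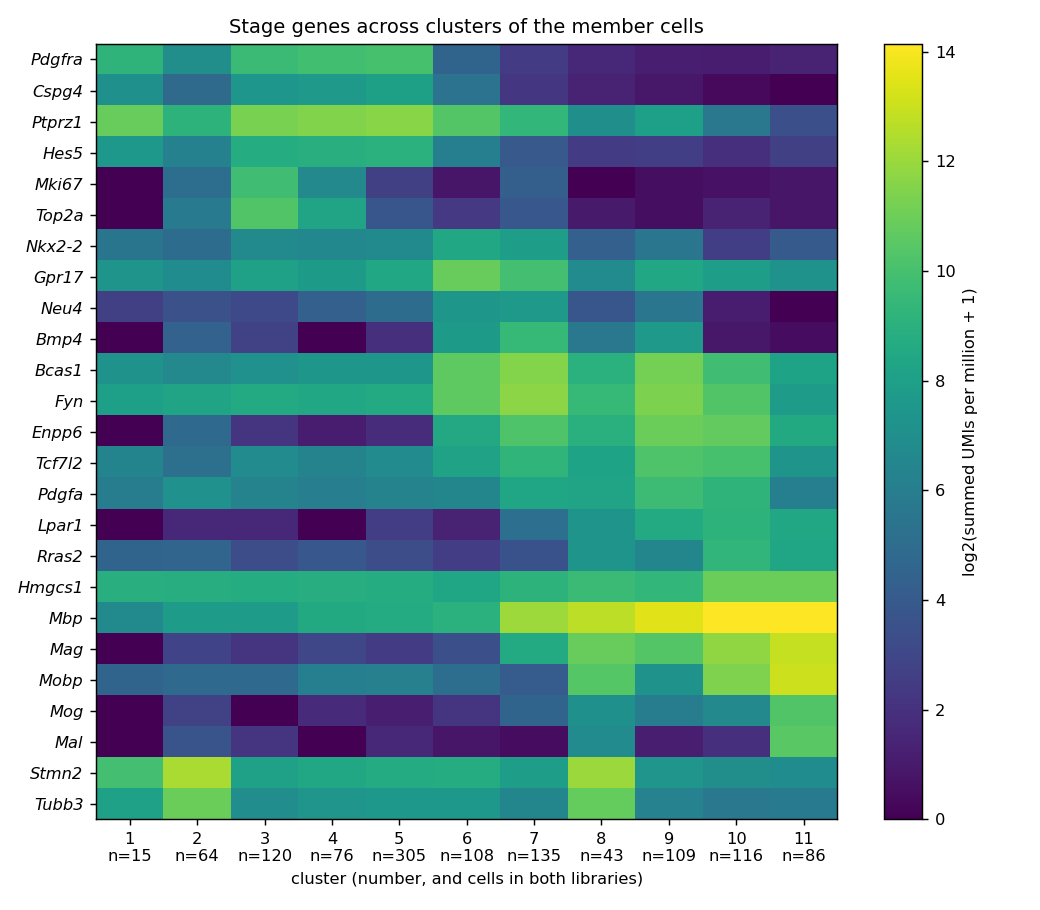
Levels of 25 genes (rows) in the 11 clusters of members (columns, with cell numbers), as log2 of CPM plus 1 on a color scale. *Gpr17* peaks in cluster 6, *Bmp4* in cluster 7, *Enpp6* in cluster 9 and *Mog* in cluster 11, and *Stmn2* is highest in clusters 2 and 8.

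Joint detection was counted in single cells. Among *Pdgfra*- cells, 47.0% (42.2 to 51.9) of library 1 and 44.1% (36.8 to 51.5) of library 2 had both *Bmp4* and *Enpp6*, and 43.7% and 47.3% had *Enpp6* without *Bmp4*. *Bmp4* without *Enpp6* was seen in 2.38% and 1.08%. In all, *Enpp6* was seen in 90.7% and 91.4% of *Pdgfra*- cells and *Bmp4* in 49.4% and 45.2%, so few cells could lack *Enpp6*. Whether joint detection departed from these shares was not tested. *Mog* was seen in 37.5% and 48.4%, with 9.26% and 13.4% holding *Mog* and *Bmp4* together and 0.713% and 0.538% *Mog* without *Enpp6*. None of *Bmp4*, *Enpp6* and *Mog* was seen in 6.18% and 6.99% of *Pdgfra*- cells but in 90.4% and 94.0% of *Pdgfra*+ cells. In the neuron class a UMI of *Enpp6* occurred in 7.38% and 4.88% of cells and one of *Bmp4* in 1.03% and 0.693%.

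**Figure D5:**
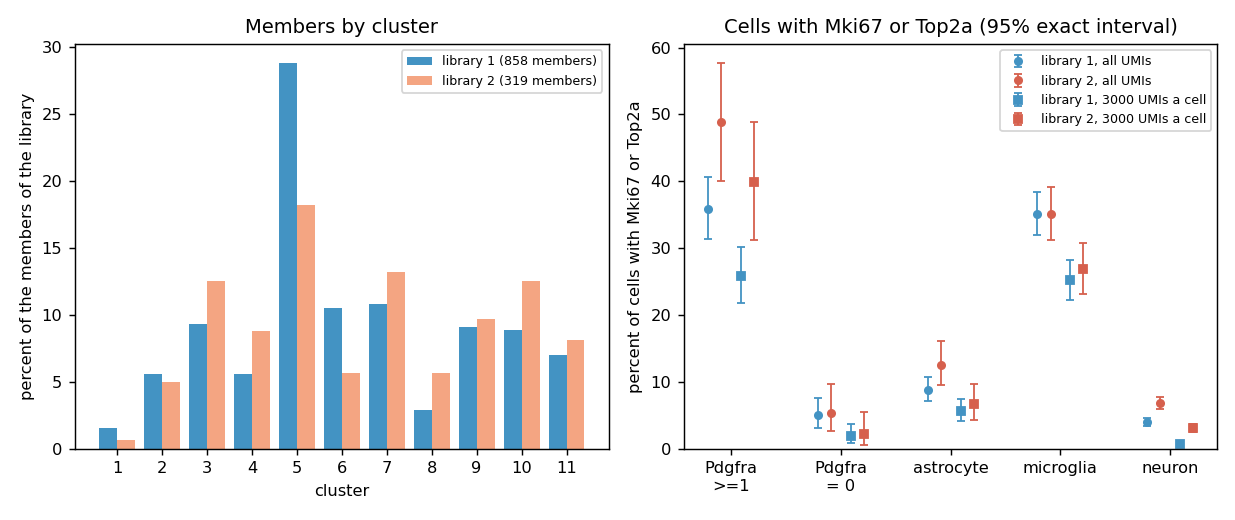
Left, percent of the members of each library in each of the 11 clusters (bars from 0). Right, percent of cells with a UMI of *Mki67* or *Top2a* in 5 classes by library with 95% exact intervals, at all UMIs (circles) and at 3000 UMIs a cell (squares), where *Pdgfra*+ cells and the microglia class stand above 25% and the other classes lie between 0.653% and 12.5%.

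Transcripts of other cells were measured in the members. The 12 microglia markers summed to 34.7 and 16.7 CPM against 19454 and 21727 CPM in the microglia class, with *Tmem119* at 0 in library 2. They included *C1qa* and *C1qb*, which the rule limited and which cut the microglia class, so part of this gap was set in advance. The 12 astrocyte markers, which included the limited *Aqp4*, summed to 489 and 390.4 CPM against 5817 and 7186 CPM. By class the sums were 481 and 475 CPM in *Pdgfra*+ cells and 493 and 361 CPM in *Pdgfra*- cells, and of 6 astrocyte markers tested 5 were higher in *Pdgfra*+ cells and 1 lower (29.6% and 27.8% of all genes), with a median log2 change of 1.53. *Slc1a3*, a glutamate transporter of astrocytes and progenitors, was at 84.9 and 86.5 CPM in *Pdgfra*+ cells, 13.8 and 10.4 CPM in *Pdgfra*- cells and 899 and 1033 CPM in the astrocyte class. Markers of vascular and nerve sheath cells were low, and their sums were larger in *Pdgfra*+ than in *Pdgfra*- cells. The 6 endothelial markers summed to 7.85 and 99.8 CPM in *Pdgfra*+ cells and 2.04 and 1.16 CPM in *Pdgfra*- cells. The 7 mural cell and fibroblast markers summed to 52.7 and 3.33 CPM against 2.95 and 1.35 CPM, and 6 of them were at 0 in the *Pdgfra*+ cells of library 2. The 5 Schwann cell markers summed to 15.5 and 14.4 CPM against 3.40 and 3.09 CPM. *Pdgfra* is also a gene of fibroblasts. *Cldn5*, an endothelial claudin, was at 56.5 CPM in the *Pdgfra*+ cells of library 2 and 2.62 CPM in those of library 1. The part of these transcripts in the differences between the classes was not tested.

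The reporter that was used for the sort was present at a low level. WPRE summed to 152 and 107 CPM in the members, 215 and 134 CPM in *Pdgfra*+ and 114 and 98.2 CPM in *Pdgfra*- cells, against 165 and 118 CPM in the microglia class, 263 and 246 CPM in the astrocyte class and 384 and 422 CPM in the neuron class. At 3000 UMIs a cell, 27.2% and 15.7% of members had a UMI of WPRE, as did 28.7% and 14.1% of the microglia class and 66.9% and 69.0% of the neuron class. Summed WPRE in the members was thus below that of the microglia class in both libraries, whereas in *Pdgfra*+ cells it was above. At 3000 UMIs a cell, 30.2% and 16.4% of *Pdgfra*+ cells had a UMI of WPRE. Neuron-rich cells, where WPRE was higher than in other members, were 54 and 13 of the *Pdgfra*+ and 38 and 25 of the *Pdgfra*- cells. Their part in these sums was not tested. Microglia do not derive from the neural tube, and where the WPRE transcripts of the members came from was not tested. *Atoh1* was at 0.847 and 0.286 CPM in the members and 2.76 and 3.64 CPM in the neuron class.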

How the data were processed

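Single-cell RNA-seq libraries of 14 samples were read as deposited, of which the 2 P5 libraries carry the results. Libraries were 10x Genomics 3' (v3.1 chemistry). The authors aligned reads to mm10 with WPRE added, using Cell Ranger 5.0.1 per the submitters' processing notes and the file headers. The deposited values are raw UMI counts per gene and cell for 31054 genes, as called and counted by the authors, without normalization. The 10% mitochondrial limit was wider than the limit of 1% stated in the study's methods, whose criteria varied with age. The members had a median of 3.67% and 3.59%, and 2 of 858 and 2 of 319 lay under 1%. An alternative of 5% kept 740 and 269. The authors also removed doublets with DoubletFinder. Here no doublet was removed in the main results, and as an alternative the 7.5% of cells with the highest Scrublet scores were left out.

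The members, gene lists and tests were chosen with earlier results of these data known. Raw UMIs were summed per library and *Pdgfra* class, and genes seen in 10% or more of either class were tested by edgeR 4.0.16 (TMM, quasi-likelihood) with the library as a block, since both sums of a library came from the same pool of pups. P-values were Benjamini-Hochberg adjusted. The SE of a log2 change was its size divided by the square root of the F statistic of the quasi-likelihood test. The library block leaves 1 residual degree of freedom, and the 2 pools are separate samples. The genes of the rule (*Olig1*, *Olig2*, *Aqp4*, *C1qa*, *C1qb* and *Pdgfra*) were not counted as results. Any gene of the fixed lists could be named, with the 12 largest rises and falls and the 15 genes by the class ratio. Some genes of these lists are not reported here. DESeq2 1.42.0 in R 4.3.3, thinning to 3000 UMIs with seed 1 and other thresholds were alternatives. The script was tested on simulated data.

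Clusters of members came from scanpy 1.11.5 (Python 3.11.15) with 2000 variable genes, 30 principal components, 15 neighbors and Leiden resolution 0.6, settings chosen after seeing the data. Intervals are exact Clopper-Pearson at 95% and, like all shares, cover counting error only, at the depth of the libraries. Gene positions are from GENCODE M21, matched by Ensembl ID.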

Additional observations from a re-analysis of the deposited data

Results flagged for a closer look

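The same rule was met by cells in the embryonic libraries, which no comparison used. At E14.5 it was met by 160 cells over the 3 control libraries (36 to 67 a library) and 89 over the 3 libraries of Atoh1S193A/- embryos (25 to 37). At E18.5 it was met by 53 control cells (10 to 28 a library) and 34 mutant cells (4 to 20). Of these, 32 cells at E14.5 and 26 at E18.5 had a UMI of *Pdgfra*. *Sox10* was detected in 1 to 9 such cells of each library at E14.5 and in 2 to 7 at E18.5, against 796 of 858 and 297 of 319 at P5. At least 10 UMIs of *Mbp* were found in 0 such cells of the E14.5 libraries and in 1 cell of each of 2 libraries at E18.5. The embryonic libraries came from the whole hindbrain, 1 embryo each, and the P5 libraries from dissected PN, so age and tissue cannot be told apart. The difference between genotypes was not tested. Groups of 2 or 3 libraries are too small for a test of outlying samples.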

How the results depend on the processing

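The counts of 3094 higher and 2908 lower genes stayed within 1.5 times under most alternatives and left that range under 3 of 10. DESeq2 called 1669 and 1787 genes, and library totals without TMM gave 4645 and 1852. Cells thinned to 3000 UMIs and split again by *Pdgfra* gave 1184 and 1300 of 5521 tested. Without the library as a replicate block edgeR called 2627 and 2436 genes, and this changed the call of no named gene except 2. Leaving out a library leaves no residual degree of freedom, so it gave no count and only per-library log2 ratios. Thinning moved the share of *Pdgfra*+ cells from 46.3% to 37.5% and the share with *Mki67* or *Top2a* from 22.1% to 15.2% in all members, from 42.4% to 32.8% in *Pdgfra*+ and from 5.18% to 2.04% in *Pdgfra*- cells. With either library alone these shares ran from 41.7% to 50.9%, 20.7% to 23.5%, 35.9% to 48.9% and 4.99% to 5.38%, and the share of lineage cells from 4.83% to 7.59%, while the other alternatives gave 4.91% to 7.53% for the latter. Of 1441 values of 123 named genes, which include per-library log2 ratios compared by sign only, 1401 kept direction and any call. A further 18 lost the call, 6 gained it and 16 turned sign. Those that turned were, after thinning, *Bcan* at 0.0025, *Gpr37l1* at 0.13, *Meg3* at -0.17, *Nefl* at -0.24, *Sncb* at -0.24, *Snhg11* at -0.021, *Stmn2* at -0.66, *Tubb3* at -0.56 and *Tubb4b* at -0.22. *Gpr37l1* was also at 0.029 without the highest Scrublet scores, 0.078 without neuron-rich cells and 0.18 with library totals, *Nkx2-2* at 0.067 with library totals and at -0.46 and 0.19 in libraries 1 and 2 alone, *Ptgds* at -1.17 without the highest Scrublet scores and *Tubb3* at 0.97 and -0.086 in libraries 1 and 2 alone. The cause of these turns was not tested. The settings without neuron-rich cells and with library totals were chosen after seeing the data. Depth limits genes such as *Opalin* and *Klk6*, which were too rare to be tested.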

Other observations

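Immediate early genes, Hox genes and targets of Wnt signaling were also measured in the members. Of 13 immediate early genes tested, 8 were higher in *Pdgfra*+ cells and 1 lower (29.6% and 27.8% of all genes) by edgeR's quasi-likelihood test, with a median log2 change of 1.13. *Egr1* stood at 208 and 219 CPM in *Pdgfra*+ cells of libraries 1 and 2 and at 19.4 and 20.3 CPM in *Pdgfra*- cells, a log2 change of 3.15 ± 0.13 (SE, adjusted p = 9.9e-35). *Fos* stood at 339 and 394 CPM against 68.8 and 101 CPM. These genes respond to growth factors and also to tissue dissociation, and which of these moved them was not tested. In cluster 5 *Egr1* was at 363 CPM and in cluster 11 at 2.35 CPM.

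Of 20 Hox genes, which hold the position of hindbrain and spinal cord cells along the body axis, 3 were abundant enough to be tested. All 3 were higher in *Pdgfra*+ cells (29.6% of all genes). DESeq2 called 1 of them higher, beside 1669 of all 10456 genes. *Hoxa2* stood at 18.1 and 18.8 CPM against 3.18 and 4.44 CPM, and *Hoxb2* and *Hoxb3* changed by 0.74 and 0.57 on the log2 scale, calls that DESeq2 did not make (adjusted p = 0.20 and 0.23). In the members *Hoxa2* summed to 8.82 and 8.16 CPM, against 13.6 and 14.7 CPM in the neuron class and 4.24 and 1.44 CPM in the microglia class. *Meis2*, a homeodomain factor, stood at 153 and 165 CPM in *Pdgfra*+ cells, 29.9 and 27.6 CPM in *Pdgfra*- cells, 142 and 152 CPM in the astrocyte class and 27.3 and 24.3 CPM in the neuron class. Of 5 tested genes of the Atoh1 lineage, all were higher in *Pdgfra*+ cells (29.6% of all genes). Without the neuron-rich members 2 were, beside 2973 of all 10054 genes.

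Of 10 Wnt targets, 4 were tested, of which 1 was higher and 2 lower (29.6% and 27.8% of all genes). *Axin2*, a feedback inhibitor of the pathway, stood at 14.02 and 6.10 CPM in *Pdgfra*+ cells against 17.8 and 14.9 CPM, a log2 change of -0.86, and *Nkd1* changed by 0.93. DESeq2 made neither call (adjusted p = 0.092 and 0.12). *Lef1*, *Apcdd1* and *Notum* were each at or under 6.65 CPM in every member class of every library and were not tested. *Gad1*, an enzyme of GABA synthesis, stood at 11.2 and 10.5 CPM in *Pdgfra*+ cells against 0.454 and 0.386 CPM in *Pdgfra*- cells and 0.366 and 0.299 CPM in the neuron class, and was seen in 11.7% and 12.8% of *Pdgfra*+ cells. The other 4 members of the inhibitory neuron list were each lower in the *Pdgfra*+ cells of library 2, and the 5 genes summed to 34.8 and 13.9 CPM in *Pdgfra*+ cells and 11.6 and 13.9 CPM in *Pdgfra*- cells. *Gad1* was chosen for mention after its values were seen.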
